A study of Mus musculus with 8 samples.

Results

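The transcripts described here were found in mouse NEBD-stage oocytes at moderate to high levels outside polysomes and at low or zero levels on them: Tmem104, AC132131.1, Nme5, Actg2, Acot13, 4930515G01Rik, Rab3a, Kcnh5 and Deb1. They are 9 of the 25574 genes in the deposited FPKM table and were selected on the values described below, since every non-polysomal (NP) library lay above every polysomal (P) library for each of them. All 9 were among the 14292 genes with a mean FPKM (fragments per kilobase of transcript, scaled to library size) above 0.1 in at least 1 dataset. NEBD is the breakdown of the nuclear envelope, the first visible step of meiotic resumption. Oocytes were taken from CD1 mice 8 weeks of age, 46 h after an injection of 5 IU of pregnant mare serum gonadotropin. After release from the inhibitor IBMX they were cultured for 180 min, and cycloheximide at 0.1 mg/mL was present for the final 10 min, in NP and P alike. Each profile came from 200 denuded oocytes whose lysate was spun for 65 min through a sucrose gradient of 10 to 50%. Pooled fractions of the gradient gave 4 NP and 4 P libraries. Per the paper, NP held the fractions of ribosomal subunits and single ribosomes, P held the polysomal fractions, and the top fraction was left out.

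An mRNA that is being translated by several ribosomes at once sediments with polysomes, while ribosome-free mRNA stored in messenger ribonucleoprotein particles stays in the lighter part of the gradient. Since NP also holds single ribosomes, mRNA free of ribosomes and mRNA on a single ribosome cannot be told apart in it. The fully grown oocyte makes no new RNA at this stage, and many of its stored mRNAs are recruited to or released from ribosomes as meiosis resumes. Recruitment is known to depend on the 3′ UTR, where cytoplasmic polyadenylation elements (CPE) near the polyadenylation signal guide the lengthening of the poly(A) tail.

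The 9 members carry unlike functions. Tmem104 encodes a multi-pass membrane protein related to amino acid transporters, and Kcnh5 encodes a voltage-gated potassium channel of the ether-a-go-go family. Rab3a is a small GTPase of regulated exocytosis, and Actg2 is the gamma actin of smooth muscle. Acot13 is a thioesterase that cleaves fatty acyl-CoA, and Nme5 belongs to the nucleoside diphosphate kinases and is known from the axoneme of cilia and sperm tails. Deb1 is an older symbol of Ss18l2, a small relative of the chromatin remodelling subunit Ss18. No protein is known for 4930515G01Rik, an annotated antisense transcript, and AC132131.1 is a clone-based name without an entry of its own in the annotation used here.

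The 3′ ends of the members are shown because the elements that steer translation in the oocyte lie there. GENCODE transcripts were found for 8 members, and the last 100 bases of the transcript with the longest coding region were searched on the transcribed strand for the polyadenylation signals AATAAA and ATTAAA and for the CPE sequences TTTTAT and TTTTAAT. Each line below gives at most 30 bases, 5′ to 3′, with the signal in capitals.
Tmem104: ccaaagtccttAATAAAgctgctattaccc
Kcnh5: ctgtAATAAAaaaaaagtatgaattttgtt
Rab3a: gtcAATAAAgcgaatggaccttgctgagtc
Actg2: cagatcATTAAAaccttcaagccttatttc
Acot13: ttctgaAATAAAttatcaaaaccagaagta
4930515G01Rik: cacATTAAAcaggacccgtgcttctaaggc
These lie in GRCm38 at chr11:115246994-115247023 on the plus strand for Tmem104, chr12:74897220-74897249 on the minus strand for Kcnh5 and chr8:70758582-70758611 on the plus strand for Rab3a. They lie at chr6:83512905-83512934 for Actg2, chr13:24817948-24817977 for Acot13 and chr5:114773806-114773835 for 4930515G01Rik, all on the minus strand. The first 5 are parts of annotated 3′ UTRs, and the last is part of a noncoding exon. The signal ended 13 bases before the transcript end in Tmem104, 20 in Kcnh5, 18 in Actg2 and Acot13, and 45 in Rab3a, whereas in 4930515G01Rik it ended 90 bases before the end. No CPE sequence was found in the searched window of any of the 8 members, and 17.5% of the 13954 tested genes with a transcript held one. A signal was found in 7 of the 8, without Deb1, beside 74.3% of those genes. The signal of Nme5 is not shown here. No match says only that these letters are not in the window, and annotated ends need not be the ends used in the oocyte.

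Over all members the level in NP was high and the level in P was low. The median of the mean FPKM was 60.2 in NP and 2.86 in P, beside 5.75 and 3.99 over all genes tested. Summed over the 9 genes, FPKM in NP was 842, 892, 420 and 921 in replicates 1 to 4, and in P it was 16.9, 42.6, 24.5 and 18.7. Of the 36 values in P, 12 were 0 and 20 were below 1 FPKM, while no value in NP was 0. Zeros were also more common in P over the whole table. Of its 25574 genes, 9139 to 11339 were above 0 in a P library and 11703 to 13753 in an NP library. The polysomal share, defined as the mean P level over the sum of both means, was between 0% and 6.26% with a median of 2.38%, beside a median of 40.1% over all genes. The libraries were scaled separately, so a share compares relative levels in 2 pools of RNA and does not count molecules. Each library holds many oocytes, so less RNA in every oocyte and fewer oocytes with the transcript cannot be told apart.

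**Figure D1:**
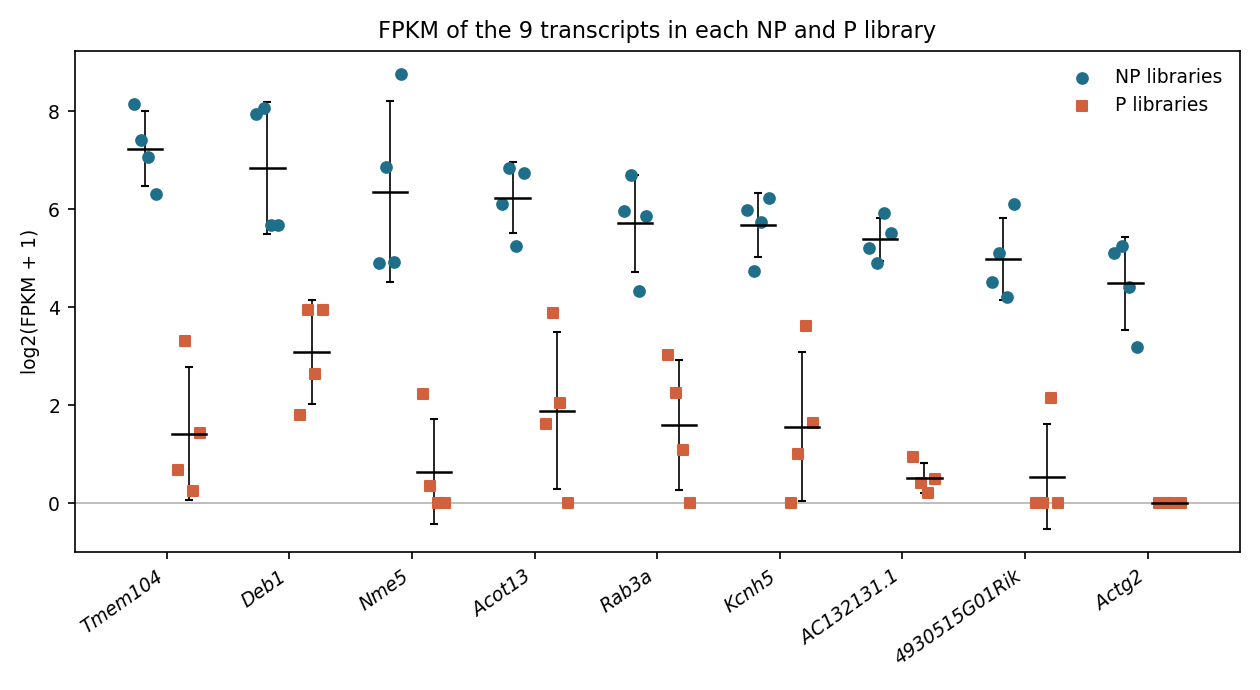
Level of the 9 transcripts, log2(FPKM + 1), in the 4 NP libraries (circles) and the 4 P libraries (squares), with the mean (line) and SD (bar) of each set of 4. The circles lie above the squares in every gene, as the selection required, and Actg2 lies at 0 in all 4 P libraries.

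Tmem104 (chr11:115187487-115247023, plus strand) had the highest NP level of the members. Its FPKM was 284, 168, 134 and 78.3 in NP replicates 1 to 4 and 0.600, 8.93, 0.195 and 1.70 in P replicates 1 to 4. All NP values were above 78, and in P only replicate 2 came near 9 FPKM. The means were 166 ± 87.0 in NP and 2.86 ± 4.10 in P (SD, n = 4 each), a polysomal share of 1.69%. Behind these values stand 12425 steps in NP and 170 in P, where a step is the smallest unit by which FPKM rose in a library. Without P replicate 2 the share fell to 0.498%.

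Kcnh5 (chr12:74897217-75177332, minus strand) spans a long locus, and the nearest genes of the table lay 130990 bases or more away and were listed at 0. Its FPKM was 61.9, 25.8, 52.6 and 74.6 in NP and 0, 0.999, 11.2 and 2.11 in P. The highest P value, in replicate 3, rested on 203 of the 239 steps in P and was 2.29 times below the lowest NP value, the narrowest margin of the 9. The 0 in P replicate 1 allows up to 0.157 FPKM at 3 steps. The means were 53.7 ± 20.7 and 3.59 ± 5.18 FPKM, with a share of 6.26% that fell to 1.90% without P replicate 3.

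Rab3a (chr8:70754679-70758677, plus strand) is known for its part in the release of secretory vesicles, in eggs that of the cortical granules. Its FPKM was 61.6, 103, 19.3 and 56.8 in NP and 7.17, 3.78, 1.11 and 0 in P. NP replicate 3 was the lowest of its dataset, and P replicate 4 held no step, which allows a level of up to 0.503 FPKM (3 steps). The means were 60.2 ± 34.3 and 3.02 ± 3.19 FPKM, a share of 4.77%. The share was 2.64% without P replicate 1 and 8.35% after every library was scaled to one median. Its last 29 bases overlap Mpv17l2 on the opposite strand, a gene with a mean of 3.13 ± 2.86 FPKM in NP and 0.682 ± 0.869 in P.

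Actg2 (chr6:83512905-83536265, minus strand) was the member with no signal on polysomes. Its FPKM was 33.5, 37.0, 20.2 and 8.09 in NP and 0 in all 4 P libraries. The NP libraries held 568 steps in all, and the lowest, replicate 4, still held 96. A count of 0 allows up to 0.409, 0.599, 0.432 and 0.717 FPKM in P replicates 1 to 4, taking 3 steps as the limit, which covers counting error only. Pooled over libraries, the NP level was 18.8 FPKM and the limit in P was 0.128 FPKM for 3 steps over the dataset, so Actg2 was at least 147-fold lower in P.

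Acot13 (chr13:24817948-24831517, minus strand) had FPKM values of 68.2, 114, 37.2 and 105 in NP and 2.07, 13.8, 3.12 and 0 in P. P replicate 2 was the highest of its dataset and 2.68 times below NP replicate 3, the lowest of the other dataset. P replicate 4 held no step, which allows up to 1.55 FPKM. The means were 81.2 ± 35.5 and 4.76 ± 6.19 FPKM. The polysomal share of 5.53% fell to 2.08% without P replicate 2. No gene overlaps it, and its neighbour Tdp2, which starts 162 bases away on the opposite strand, had means of 17.6 ± 12.7 FPKM in NP and 21.4 ± 9.50 in P.

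Nme5 (chr18:34562634-34579115, minus strand) was the least even of the members across NP libraries. Its FPKM was 28.8, 115, 29.3 and 436 in NP and 3.69, 0.270, 0 and 0 in P. NP replicate 4 held 3819 of the 4344 steps in NP and was 15.1 times above the lowest, while P replicate 1 held 20 of the 21 steps in P. The zeros allow up to 0.585 and 0.971 FPKM. The means were 152 ± 193 and 0.990 ± 1.80 FPKM. The share of 0.646% became 1.68% without NP replicate 4 and 0.0591% without P replicate 1.

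Deb1 (chr9:121710389-121712921, plus strand) had the highest P level of the members. Its FPKM was 245, 266, 50.5 and 50.2 in NP and 2.47, 14.5, 5.22 and 14.4 in P. The NP libraries fell into a higher pair, replicates 1 and 2, and a lower pair, and no P library was at 0. The means were 153 ± 119 and 9.15 ± 6.23 FPKM, a share of 5.64%, which became 15.6% after every library was scaled to one median. The transcript is short, so the P values rest on 6 to 24 steps per library.

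AC132131.1 (chr10:89873672-90683697, plus strand) was the most even member across the NP libraries. Its FPKM was 36.1, 28.9, 59.7 and 44.7 in NP and 0.912, 0.334, 0.161 and 0.4002 in P. All P values were below 1 FPKM and rested on 20 steps in all, with 2595 steps in NP. The means were 42.4 ± 13.3 and 0.452 ± 0.323 FPKM, with a share of 1.06% that fell to 0.6996% without P replicate 1. The lowest NP value was 31.6 times the highest P value, the widest ratio among the 8 members with a P value above 0. The whole span lies within Anks1b on the same strand, which encodes an ankyrin repeat scaffold protein. In the deposited table Anks1b is a separate row further along the chromosome (chr10:90829843-90971457) with means of 0.270 ± 0.405 FPKM in NP and 0.0266 ± 0.0533 in P, so the signal of this locus was recorded almost wholly under the clone-based name.

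4930515G01Rik (chr5:114773737-114774983, minus strand) is a single-exon transcript of 1247 bases. Its FPKM was 21.9, 33.3, 17.6 and 67.6 in NP and 0, 0, 3.43 and 0 in P. Only P replicate 3 held steps, 19 of them, beside 941 in NP, and the zeros allow up to 0.512, 0.7504 and 0.898 FPKM. The means were 35.1 ± 22.6 and 0.857 ± 1.71 FPKM, a share of 2.38% that rests on P replicate 3 alone. It lies inside an intron of Git2 on the same strand and shares 307 exonic bases with Ankrd13a on the opposite strand. The level in P was 30.03 ± 17.6 FPKM for Git2 and 82.1 ± 42.0 for Ankrd13a, and in NP it was 41.5 ± 23.3 and 75.1 ± 33.5. The sources used here do not say whether reads were counted by strand, and without strand the reads of the shared part cannot be told apart.

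Since all 9 were chosen for it, the lack of overlap between NP and P is no finding, and no test is given for it. Of the 14292 genes tested, 846 (5.92%) had every NP library above every P library, and 51 (0.357%) had the opposite order. The genes were ranked by the log2 of the lowest NP value plus 1 over the highest P value plus 1. AC132131.1, Actg2, Tmem104 and Nme5 ranked 1, 2, 3 and 5 with distances of 3.97, 3.18, 3.00 and 2.67. The other members ranked 14 for 4930515G01Rik, 25 for Deb1, 58 for Acot13, 66 for Rab3a and 98 for Kcnh5, which had a distance of 1.13, so 89 genes outside the list lay at least as far apart as Kcnh5.

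The genes outside the list with the widest distances over these 8 libraries were Dhps, Morc1, Snrpc, Rpl12 and Fig4. Morc1, a germ cell gene of transposon silencing, had a mean of 266 ± 179 FPKM in NP and 8.796 ± 7.73 in P. Snrpc, a component of the U1 spliceosomal particle, had 125 ± 68.1 and 8.06 ± 5.38, and Dhps, which starts the making of hypusine in the translation factor eIF5A, had 22.8 ± 5.58 and 1.02 ± 0.687. Fig4, a lipid phosphatase, had 20.5 ± 6.49 and 0.613 ± 0.785 FPKM. The ribosomal protein gene Rpl12 had 12.3 ± 1.58 and 0.663 ± 0.512 FPKM. The table also lists a pseudogene copy, and whether reads of the copy were counted under Rpl12 was not tested. A test with limma on log2(FPKM + 1) called only 3 genes, 0.021% of those fitted, when the adjusted p had to be below 0.1, and 1422 at an unadjusted p below 0.05. Tmem104 and AC132131.1 were among the 3, with Morc1 as the other, and none was called without any one of the NP replicates or without P replicate 3. Nothing is read from this for the members.

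**Figure D2:**
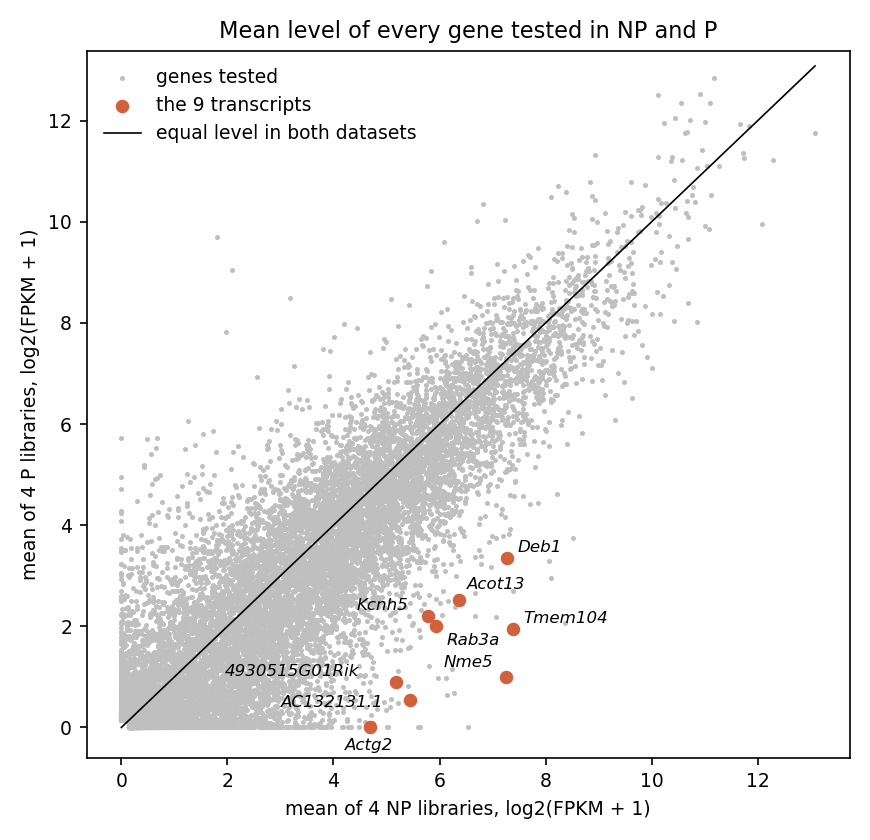
Mean level in NP against mean level in P, log2(FPKM + 1), for the 14292 genes tested (grey) and the 9 transcripts (orange), with the line of equal level. The 9 lie far below the line, with 24.7 to 166 FPKM in NP and 0 to 9.15 FPKM in P.

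The difference of the mean log2(FPKM + 1), P minus NP, was −5.82 ± 0.79 (SE from limma) for Tmem104 and −5.72 ± 0.97 for Nme5. It was −4.88 ± 0.75 for AC132131.1, −4.49 ± 0.84 for Actg2 and −4.45 ± 0.88 for 4930515G01Rik. For Acot13, Rab3a, Kcnh5 and Deb1 it was −4.35 ± 0.85, −4.12 ± 0.86, −4.11 ± 0.86 and −3.76 ± 0.79. On this scale the differences of low genes are understated, as for the members at 0 in P.

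The deposited P libraries are shifted as a whole. Their median FPKM over the genes tested was between 1.05 and 3.02, beside 3.41 to 5.55 in NP, and the median difference of all genes was −0.39 on the log2 scale. The median of the members was −4.45, or −4.06 relative to all genes. After every library was scaled to one median, the median of all genes became 0.21 and that of the members −3.79, or −4.00 relative to all genes. After quantile normalization the values were −0.02 and −4.06, a relative median of −4.04.

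The lack of overlap depended more on scaling. With one median in all libraries, Deb1, Kcnh5 and Acot13 overlapped between the datasets. The lowest NP and highest P values were then 28.6 and 43.1 FPKM for Deb1, 17.5 and 22.6 for Kcnh5, and 21.02 and 24.5 for Acot13. The other 6 kept every NP above every P library, as did all 9 after quantile normalization. The polysomal share after median scaling was 4.38% in Tmem104, 2.45% in AC132131.1, 11.7% in Acot13, 5.81% in 4930515G01Rik and 15.8% in Kcnh5. Over all genes, those with every NP above every P library were 94.3% of the genes without overlap as deposited, 29.3% after median scaling and 35.4% after quantile normalization.

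**Figure D3:**
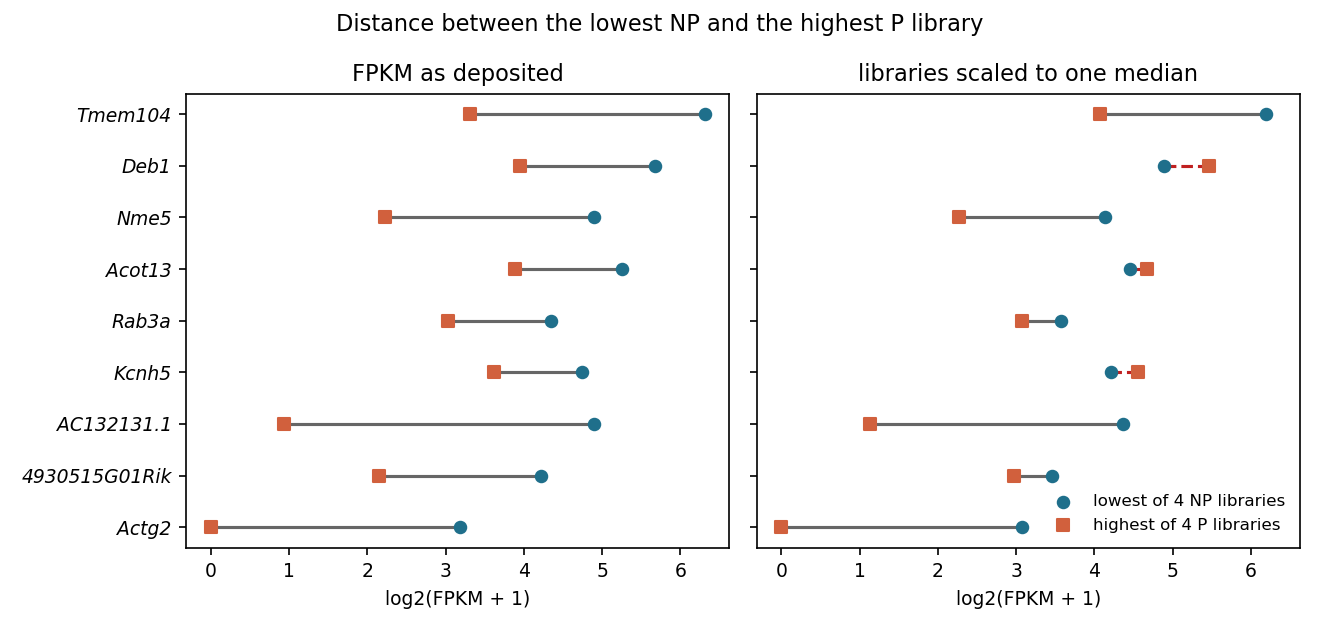
Lowest NP value (circle) and highest P value (square) of each transcript, log2(FPKM + 1), as deposited (left) and with every library scaled to one median (right). A dashed red line marks a P value above the lowest NP value, which is the case for Deb1, Kcnh5 and Acot13 on the right.

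The spread between NP libraries was close to that of other genes of such a level. The coefficient of variation over the 4 NP libraries had a median of 53.5% in the members and of 53.2% in the 4029 genes with a mean above 20 FPKM in NP. It ranged from 31.3% in AC132131.1 to 127% in Nme5. NP replicate 2 was the highest library for 4 members, replicate 4 for 3, and replicates 1 and 3 for 1 each. In P, replicate 4 was at 0 for 5 members, replicate 1 for 3, and replicates 2 and 3 for 2 each.

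In structure, the members with a transcript in the annotation were short. The median transcript length was 1290 bases over the 8 members and 2742 over the tested genes with a transcript, and the median number of exons was 5 and 8. Over the 7 coding members the median coding length was 663 bases, beside 1401 over 12822 coding genes. The median 3′ UTR was 157 bases, beside 880, and the median 5′ UTR was 180, beside 164. Kcnh5 and Tmem104 stood outside this pattern, the first with a coding region of 2967 bases and the second with a 3′ UTR of 2893 bases. The 3′ UTR was 80 bases in Actg2, 87 in Acot13 and 87 in Nme5. An AUG upstream of the coding start was present in 2 of the 7 coding members, Rab3a with 7 and Kcnh5 with 4, beside 49.8% of the coding genes. No length was tested, since the list is small and was not drawn for it.

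Shared sequence between genes could place reads of one gene on another. The closest transcript to Actg2 was Acta1, with 85.0% identity over 1137 bases, and Rab3a shared 81.2% with Rab3b over 547 bases. Kcnh5 shared 77.0% with Kcnh1 over 2160 bases. Apart from the stretch that 4930515G01Rik shares with Ankrd13a, none of the other members searched had a similar transcript of another gene. Of the promoters given by RefSeq (GRCm38.p6, 300 bases around each start), 6 belong to 5 members. None held the TATA box TATAAA on either strand, beside 13.6% of all 32851 promoters, and 5 held the GC box GGGCGG, beside 35.7%.

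Genes related to the members by family or pathway were grouped in 9 lists, beside which the values of the members can be set. Of the 181 genes in these lists, 167 are in the table, and 115 passed the filter with the members left out. None of the 115 was called by limma, where the lowest adjusted p was 0.405, beside 0.021% of all genes tested. With voom on the recovered steps none of the 115 was called, beside 158 of the 13436 genes fitted. At an unadjusted p below 0.05 (limma) there were 9, of which 8 were lower in P and 1 was higher. Over all 14292 genes there were 1422, of which 1354 were lower in P. The median log2 difference of the 115 was −0.52, beside −0.39 over all genes. Every NP library was above every P library in 5 of them (Cnn1, Stx2, Acot7, Rsph3b and Hydin), beside 5.92% over all genes tested, and every P above every NP library in 2 (Astl and Slc38a9), beside 0.357%.

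Of the actins and smooth muscle genes, 6 were tested and none was called. The cytoplasmic actins were abundant in both datasets, with 100 FPKM in NP and 73.4 in P for Actb (adjusted p = 0.72, limma) and 45.2 and 102 for Actg1 (adjusted p = 0.94, limma). Acta1, the closest in sequence to Actg2, had 4.42 FPKM in NP and 14.3 in P, a polysomal share of 76.4%. Its libraries ranged from 0 to 7.00 FPKM in NP and from 0 to 24.7 in P (adjusted p = 0.71, limma). Acta2, Tagln, Lmod1 and Synpo2, which mark smooth muscle cells, were listed at 0 in all libraries. Of the 8 smooth muscle markers 3 were tested, and their summed level was 11.4 to 32.2 FPKM in NP and 3.40 to 32.5 in P. Cnn1, a calponin of smooth muscle, had 12.2 FPKM in NP and 1.33 in P with no overlap between libraries, and was not called (adjusted p = 0.42, limma). The other 2 markers tested were Myh11, with 11.1 FPKM in NP and 17.5 in P, and Smtn, with 0.185 and 0.206. The part of such cells in the values of Actg2 was not tested.

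Of the Rab3 GTPases and their partners, 18 were tested and none was called or free of overlap. Rab3d had 57.1 FPKM in NP and 57.0 in P, and Rab3b had 11.4 and 8.58, whereas Rab3c was listed at 0. The highest genes of the list, the effector Rph3al and the exchange factor Rab3il1, had 244 and 198 FPKM in NP and 120 and 67.9 in P (adjusted p = 0.55 and 0.42, limma). Among 20 genes of granule exocytosis, the cortical granule protease Astl had every P library above every NP library, with 1438 FPKM in P and 273 in NP, and was not called (adjusted p = 0.42, limma). Nsf, the ATPase that takes apart SNARE complexes, had 84.8 FPKM in P and 56.0 in NP. Stx2, a syntaxin, had every NP above every P library, with 23.9 and 9.98 FPKM, and was not called (adjusted p = 0.53, limma).

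The list set beside Nme5 holds adenylate kinases as well as nucleoside diphosphate kinases. Its genes differed widely in their presence in P, with a median polysomal share of 27.6%. Of 11 genes tested none was called. Nme2, Nme4, Ak3 and Ak7 were at 0 in all P libraries. Their means in NP were at most 1.03 FPKM, and no NP library was above 3.23 FPKM. Ak8 had a mean of 2.84 FPKM in NP and a share of 1.05%. Nme3 had 44.3 FPKM in NP and 72.7 in P, and Nme6 had 32.5 and 12.4. The adenylate kinase Ak4 had 71.7 FPKM in NP and 128 in P. Nme5 is known as an axonemal protein, and of the radial spoke and motile cilium genes 10 of the 18 with deposited values were tested. Their summed level was 14.8 to 77.9 FPKM in NP and 4.01 to 39.8 in P, and Foxj1, the factor that defines motile ciliated cells, was listed at 0. The highest were Rsph9, with 20.96 FPKM in NP and 11.2 in P, and Rsph3a, with 9.66 and 2.55. None of the 10 was called.

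The acyl-CoA thioesterases were mostly lower in level than Acot13 in NP, except Acot11 and Acot7. Acot11 had 115 FPKM in NP and 60.2 in P. Acot7 had 103 and 24.2 FPKM with no overlap between the datasets, and was not called (adjusted p = 0.40, limma). Acot3, Acot8 and Acot9 had polysomal shares of 44.9%, 15.3% and 55.0%. Pctp, the lipid transfer protein that binds Acot13, had 0.159 FPKM in NP and 2.48 in P.

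Of the potassium channels related to Kcnh5, 7 were tested and none was called. Kcnh1, its closest relative, had 25.4 FPKM in NP and 18.7 in P with a share of 42.4%. Kcnh8 had 25.6 and 10.6, Kcnh3 15.0 and 3.16, and Kcnq1, the channel of the list with the highest level, 65.3 and 70.4. Kcnh4 was listed at 0.

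The relatives of Deb1 were present in P. Ss18 had 46.8 FPKM in NP and 108 in P (adjusted p = 0.51, limma), and Ss18l1 had 43.7 and 42.7. Of 21 tested genes of the BAF remodelling complex none was called, and the most abundant were Smarcd2, with 430 FPKM in NP and 522 in P, and Actl6a, with 59.1 and 97.3. Among 6 tested transporters related to Tmem104, Slc38a8 had 21.1 FPKM in NP and 37.7 in P and Slc38a7 had 11.0 and 14.4. Slc38a9, a lysosomal arginine sensor, had every P library above every NP library, with 15.9 and 8.35 FPKM, and was not called (adjusted p = 0.66, limma).

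**Figure D4:**
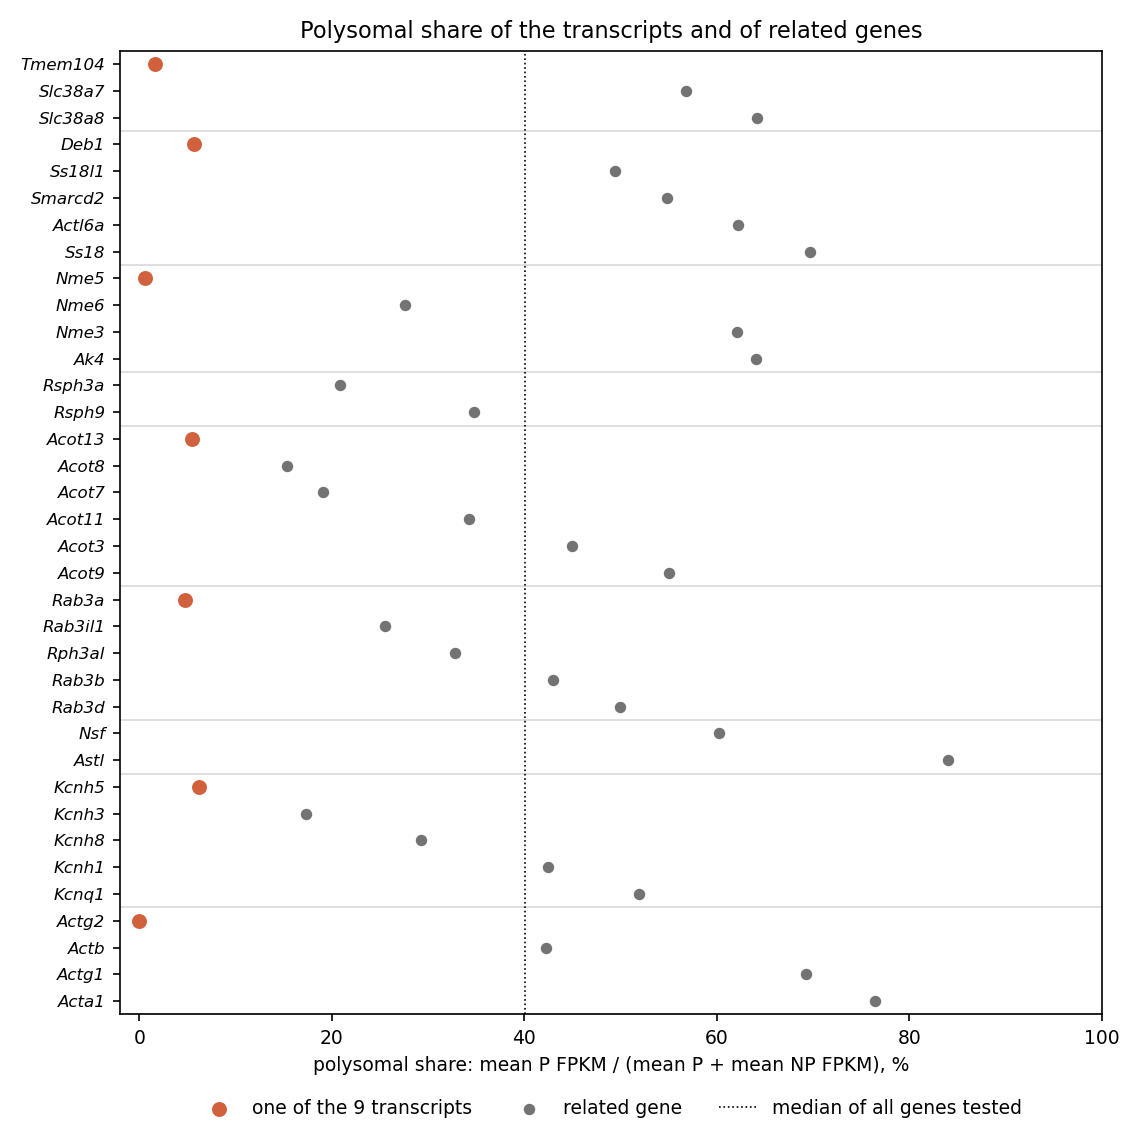
Polysomal share, the mean P level as a percentage of the sum of the mean P and mean NP level, for the 7 members with related genes (orange) and for the highest genes of each list and close family members with a mean above 5 FPKM (grey), grouped by list, with the median of all genes tested, 40.1% (dotted). The members lie between 0% and 6.26% by selection, and the related genes shown lie between 15.3% and 84.0%.

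Of the 22 genes that overlap the members or lie next to them on the chromosome, 16 were tested and 5 were listed at 0 in every library. None was called (lowest adjusted p = 0.449, limma), beside 0.021% of all genes tested. Of the 16, 1 had every NP above every P library, beside 5.92% of all genes tested. It was Stambp, a deubiquitinase 6941 bases from Actg2, with 1.99 ± 2.39 FPKM in NP and 0 in P. The 9 members lie on 9 chromosomes. Nat9, which overlaps the first 373 bases of the Tmem104 span on the opposite strand and shares no exonic base with it, had 43.6 ± 39.7 FPKM in NP and 12.3 ± 11.5 in P.

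Oocyte genes were abundant as a set in every library. All 15 oocyte markers were tested, with summed levels of 8590 to 16673 FPKM in NP and 9610 to 40207 in P. Of these, Nobox (466 FPKM in NP and 115 in P) and Figla (12.8 and 1.36) had every NP above every P library, and none had the opposite order. Over all genes tested the shares were 5.92% and 0.357%. Of 15 granulosa and cumulus markers 7 were tested and 5 were listed at 0, among them Fst and Foxl2, and the summed level was 126 to 255 FPKM in NP and 119 to 493 in P. Serpine2 had a mean of 112 FPKM in NP and 223 in P, Cyp19a1 30.03 and 19.7, and Nr5a2 24.1 and 13.3. The others tested, Kitl, Nr5a1, Inha and Gja1, had means of at most 0.691 FPKM in NP and 2.57 in P. Of 8 blood and endothelial markers 1 was tested, Pecam1, with a mean of 30.7 FPKM in NP and 27.5 in P. The part of such cells in the values of the members was not tested. Libraries were scaled to numbers of 1299378 to 7594639 in NP and 2677946 to 4699328 in P, so a step on a gene of 1 kb equals 0.132 to 0.770 FPKM in NP and 0.213 to 0.373 in P.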

How the data were processed

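The labels put 4 libraries in each dataset. RNA of pooled fractions was depleted of rRNA, primed with oligo(dT) and random hexamers, amplified and made into Nextera libraries. Per the labels and the study's methods, the authors used Trim Galore 0.4.1, FastQC 0.11.5 and HISAT2 2.0.5 with GRCm38 and deposited FPKM per gene, which are not counts. Amplified reads without molecular identifiers are not independent molecules, so limits at 0 cover counting error only. The authors' mean columns lay within 0.000575 FPKM of means taken over the 4 libraries. Their tables of expressed genes and of DESeq2 fold changes and p-values were not used.

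The members and gene lists were chosen with earlier results of these data known. The genes named are the members, the 2 highest genes of each list, close family members (with values above a mean of 5 FPKM), overlapping or adjacent genes and the 5 genes most like the members. Cnn1, Pctp, Slc38a9, Stx2, Rsph3b, Hydin, Nme2, Nme4, Ak3, Ak7, Ak8, Foxj1 and the markers fall outside this rule and were picked after their values had been seen. From the related lists 1 gene was left out and is not reported here.

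The fit was limma 3.58.1 in R 4.3.3 (eBayes with trend) on log2(FPKM + 1), tested on simulated data, with Benjamini-Hochberg adjustment over the 14292 genes past the filter and a threshold of 0.1. Steps were recovered for 14213 genes (whole within 0.01), with the exon length of GENCODE vM21 for 7603 and a searched length for 6610. Of the rows of the table, 22667 matched the annotation by symbol, 1941 by an older symbol and 966 did not match. Transcripts were compared with blastn 2.17.0, and Python 3.11.15, numpy 2.4.6, pandas 2.3.3 and matplotlib 3.10.9 were used. Alternatives were another pseudocount, filter or scaling, a replicate block, voom on the steps and leaving out each library.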

Additional observations from a re-analysis of the deposited data

Results flagged for a closer look

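In groups of 4 libraries, a value was marked when its gap to the nearest other library exceeded the share of the range that Dixon's test sets. Chance gives this in about 1 in 20 groups of normally distributed values. FPKM values with zeros need not follow that distribution, so the rate is not known here. A group with a single value above 0 is always marked. Of 93 groups over 47 named genes, 7 were marked. Among the members, Nme5 in P replicate 1 was 3.69 FPKM, with 0.270 FPKM in the next library. 4930515G01Rik in P replicate 3 was 3.43 FPKM, while the other P libraries were at 0. Both are P values, and each is the library on which most of that member's polysomal signal rests.

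Among other named genes, Snrpc in NP replicate 4 was 226 FPKM, with 96.8 FPKM in the next library. Rab3il1 was 95.1 FPKM in NP replicate 3 and at least 226 FPKM in the others. Kcnh3 in NP replicate 1 was 48.8 FPKM, with 6.40 FPKM next to it. In P replicate 4, Rsph9 was 36.4 FPKM with 6.24 FPKM next to it, and Kcnh8 was 40.8 FPKM with 1.61 FPKM next to it.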

How the results depend on the processing

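All 99 log2 differences of single members under the alternatives were below 0, between −7.88 and −2.49. The count of 3 genes called over the whole table was not stable. It became 5 with a pseudocount of 0.1, 0 without a filter, 5 with a mean FPKM above 1, 0 after median scaling, 0 after quantile normalization and 158 with voom on recovered steps, of which 156 were lower in P. Leaving out a library gave 0 to 5, and the count was 0 without any one of the NP replicates or without P replicate 3. Where it was 0, limma still gave 942 to 1598 genes at an unadjusted p below 0.05. In the fit with a replicate block it was 1, Tmem104. The labels do not say that a number marks a shared gradient, and deviations of libraries with the same number correlated at 0.14, 0.05, 0.24 and 0.15 for replicates 1 to 4, against −0.13 to 0.13 for other numbers, with 3 of 4 NP libraries highest with their own number. The value for replicate 2 lay within the range of other numbers, and the fit without the block was used. Related genes called remained 0 under each alternative, the block included. Genes with every NP above every P library were 846, 299 after median scaling and 361 after quantile normalization, and 1117 to 1607 with a library left out, the highest being 1607 without P replicate 1, 1468 without NP replicate 4 and 1280 without P replicate 3. The median log2 difference of the members was −6.39 with a pseudocount of 0.1 and −3.79 after median scaling, and −4.78 to −4.18 with a library left out. Polysomal shares rose to at most 15.8% (Kcnh5, median scaling). With a library left out, fewer values must be free of overlap, so over the same genes the count without overlap can only rise. A smaller pseudocount also widens any difference in which every NP value lies above every P value. The cause of the other changes was not tested. Values in P below about 1 FPKM rest on few steps, and differences between members there could not be resolved at this depth.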
